A study of Homo sapiens with 8 samples.

Results

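The mitochondrial genome of human cells carries 37 genes, and all of them were measured here: 13 mRNAs, 2 rRNAs and 22 tRNAs. They were chosen as the rows whose symbol starts with MT- or J01415., which gave 37 of 55075 gene rows. A further row named MT-ATP8 was left out because its Ensembl ID, ENSG00000229604, is a pseudogene on chromosome 2, and it held at most 10 counts in any library. The gene that truly encodes MT-ATP8, both rRNAs and all tRNAs are listed in the files under J01415 names and were given their usual names through their Ensembl IDs, which matched GENCODE release 29 for 37 of 37.

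Read counts per gene came from RNA sequencing of HCT116, an established human colon cancer line, and of an HCT116 derivative in which FBXW7 was knocked out (KO). FBXW7 binds the targets of a ubiquitin ligase and so marks them for degradation. Wild-type (WT) and KO cells were each sampled at 2 points, at the end of 1 h at 42 °C (heat shock) and after 2 further hours at 37 °C (recovery), so all 4 groups had been heated. The layout asks how transcript levels change from heat shock to recovery in each line, and whether the lines differ. Each group had 2 libraries. The series description calls its replicates biological without saying what sets them apart, so the p-values reflect no more than the spread between libraries, which may be technical. The sources used here do not give the number of KO clones, and unheated cells were not analysed here. The files give counts over the whole FBXW7 gene, which cannot show a deleted part, and FBXW7 stood at 13.8 to 17.4 CPM (counts per 1000000 counts of the library) in the KO libraries and 21.7 to 33.5 in the WT libraries.

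Mitochondrial DNA is a small circle transcribed along both of its strands, called heavy and light, into long precursor RNAs. In these precursors the tRNAs lie between the mRNAs and rRNAs, and cutting at the ends of each tRNA by mitochondrial RNase P and the nuclease ELAC2 releases the neighbouring RNAs. The mRNAs encode subunits of respiratory chain complexes I, III and IV and of ATP synthase (complex V), while the rRNAs and tRNAs serve the mitochondrial ribosome. Mature tRNAs carry no poly(A) tail, are folded and heavily modified, and here their genes were 59 to 75 bases long. A whole read of 50 bases therefore has only 10 to 26 start positions inside a tRNA gene, so a count for one can come from a tRNA or from a precursor that spans it.

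The tRNA sequences that carry the main findings follow, 5′ to 3′ as DNA in the sense of the tRNA, with the anticodon in capitals, read from the GRCh38 genome with GENCODE release 29. The first 4 tRNAs had the largest differences between the lines at heat shock. The next pair, MT-TC and MT-TY, are neighbours that moved the opposite way. MT-TI is shown because it directly follows an mRNA gene as the first 4 do, yet did not move with them.

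MT-TW: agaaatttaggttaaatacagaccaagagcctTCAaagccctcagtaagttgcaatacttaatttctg
MT-TG: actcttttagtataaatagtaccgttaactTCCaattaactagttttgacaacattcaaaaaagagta
MT-TR: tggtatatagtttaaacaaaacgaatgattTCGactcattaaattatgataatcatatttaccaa
MT-TH: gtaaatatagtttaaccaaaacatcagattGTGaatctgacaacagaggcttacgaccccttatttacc
MT-TC: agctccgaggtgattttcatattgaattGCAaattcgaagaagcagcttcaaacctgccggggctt
MT-TY: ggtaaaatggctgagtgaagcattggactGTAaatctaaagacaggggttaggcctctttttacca
MT-TI: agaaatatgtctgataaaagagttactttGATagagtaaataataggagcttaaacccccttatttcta

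These genes lie at chrM:5512-5579, chrM:9991-10058, chrM:10405-10469 and chrM:12138-12206 on the plus strand for MT-TW, MT-TG, MT-TR and MT-TH. MT-TC at chrM:5761-5826 and MT-TY at chrM:5826-5891 are on the minus strand and share 1 base, while MT-TI lies at chrM:4263-4331 on the plus strand. Each is a tRNA gene without introns. By GC content, MT-TR (23.1%), MT-TG (26.5%), MT-TW (35.3%) and MT-TH (36.2%) lay below MT-TC (45.5%) and MT-TY (42.4%), while MT-TI was at 28.99% and MT-TD at 23.5%.

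Total counts ran from 15507896 to 34387618 per library. Mitochondrial transcripts together made up 8.66 to 11.3% of all counts, with 95% Clopper-Pearson intervals no wider than ±0.0149 percentage points, which cover counting error only since the reads carry no molecular identifiers. Per group the share was 9.003 ± 0.027% (SD, n = 2) in KO heat shock, 10.2 ± 1.6% in WT heat shock, 9.56 ± 0.44% in WT recovery and 9.16 ± 0.71% in KO recovery. An exact two-sided permutation test of 2 libraries against 2 cannot go below p = 0.333, and p for the 4 differences between groups in the total share ran from that value to 1. The pair of WT heat shock libraries stood furthest apart of the 4 pairs, where chi-square divided by its degrees of freedom over all genes was 19, against 4.91 for KO heat shock, 2.43 for WT recovery and 8.23 for KO recovery. No column header names the recovery library. It was taken from the order of names in each comparison, the first named as the first count column. The authors' fold changes are that column over the second, which does not show which is recovery. With the opposite reading, all heat shock and recovery labels below would trade places. Each recovery change would then be inverted, and the KO against WT values given for heat shock would belong to recovery and the reverse. Replicate 2 of WT heat shock held 0.621% of its counts in mitochondrial tRNAs and replicate 1 held 0.376%. Marker genes were those of an epithelial line. The 10 epithelial and colon markers summed to 1961 to 2995 CPM with none at 0, the 6 fibroblast markers to 6.56 to 10.2 CPM with LUM at 0, and the 6 immune and blood markers to 16.5 to 30.3 CPM, mostly CD68, with CD3E at 0.

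Mitochondrial tRNAs were scarce in KO cells at heat shock. They made up 0.0444 and 0.0431% of counts in the KO heat shock libraries, against 0.376 and 0.621% in WT heat shock, 0.428 and 0.397% in WT recovery, and 0.622 and 0.471% in KO recovery. The pair of KO heat shock libraries lay below all 6 other libraries, while the other 3 groups overlapped or lay close together. The exact permutation p was 0.333, the smallest this design allows, for KO against WT at heat shock, for recovery against heat shock in KO and for KO against WT at recovery, where both KO libraries lay above both WT libraries. It was 1 for recovery against heat shock in WT. Because these are bulk libraries, fewer cells holding a transcript and less of it per cell cannot be told apart.

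The tRNAs for tryptophan, glycine, arginine and histidine showed the largest deficit. MT-TW stood at 43.7 and 29.4 CPM in KO heat shock, against 951 and 1387 in WT heat shock, 879 and 816 in WT recovery and 1905 and 1459 in KO recovery. The levels of MT-TH were 49.6 and 39.7 CPM in KO heat shock, 1081 and 1657 in WT heat shock, 745 and 698 in WT recovery and 1809 and 1150.0 in KO recovery. For both tRNAs the KO heat shock libraries were more than an order of magnitude below every other library. MT-TG read 18.4 and 18.2 CPM in KO heat shock, 512 and 1034 in WT heat shock, 542 and 428 in WT recovery and 1109.6 and 626 in KO recovery. MT-TR read 24.5 and 13.1 CPM in KO heat shock, 511 and 661 in WT heat shock, 663 and 692 in WT recovery and 906 and 794 in KO recovery. Again the KO heat shock pair did not overlap any other group.

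By the quasi-likelihood test of edgeR, adjusted by Benjamini and Hochberg's method over 17471 genes, the log2 difference between KO and WT at heat shock was -5.40 ± 0.32 for MT-TG (± standard error here and below, n = 2 libraries per group; adjusted p = 1.28e-08). It was -5.00 ± 0.21 for MT-TW, -4.97 ± 0.22 for MT-TR and -4.94 ± 0.23 for MT-TH, with adjusted p-values from 5.18e-10 to 1.30e-09. From heat shock to recovery in KO cells these tRNAs rose, by 5.56 ± 0.16 on the log2 scale for MT-TR, 5.54 ± 0.15 for MT-TW, 5.50 ± 0.25 for MT-TG and 5.02 ± 0.16 for MT-TH. At recovery their levels in KO cells were near or above those in WT cells, with KO minus WT log2 differences of 1.03 ± 0.19 for MT-TH and 0.99 ± 0.18 for MT-TW, which passed (adjusted p = 3.28e-04 and 2.35e-04), and 0.33 ± 0.18 for MT-TR, which did not (adjusted p = 0.134). MT-TG passed there at 0.84 ± 0.26 (adjusted p = 0.0122), but fell to 0.37 and lost the call without KO recovery replicate 1, and MT-TH kept its call but fell to 0.68.

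Among the remaining tRNAs read from the heavy strand, the valine, leucine and threonine tRNAs followed the same course. MT-TV, which lies between the rRNA genes, stood at 7.03 and 5.54 CPM in KO heat shock, 113 and 230.4 in WT heat shock, 47.2 and 32.2 in WT recovery and 94.9 and 66.5 in KO recovery. The leucine tRNA MT-TL1, which follows the larger rRNA gene, read 126 and 131 CPM in KO heat shock, 528 and 1036 in WT heat shock, 616 and 494 in WT recovery and 649 and 496 in KO recovery. MT-TT, which follows the cytochrome b gene, read 3.44 and 3.12 CPM in KO heat shock, 27.8 and 37.01 in WT heat shock, 26.8 and 25.1 in WT recovery and 43.4 and 30.9 in KO recovery. Each was lowest in both KO heat shock libraries, with no overlap with another group. The KO minus WT differences at heat shock were -4.78 ± 0.31, -3.31 ± 0.19 and -2.61 ± 0.23 on the log2 scale for MT-TV, MT-TT and MT-TL1, and the KO changes to recovery were 3.67 ± 0.24, 3.48 ± 0.15 and 2.14 ± 0.19, all past the test.

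Of the 7 tested tRNAs of the light strand, 4 were lower in KO at heat shock: MT-TE, MT-TS1, MT-TP and MT-TN. Among all genes tested, 28.2% were lower and 27.4% higher in that comparison. MT-TE, the glutamate tRNA, stood at 20.9 and 21.98 CPM in KO heat shock against 77.7 and 152 in WT heat shock and 121 and 94.8 in KO recovery. The serine tRNA MT-TS1 stood at 15.7 and 17.9 CPM in KO heat shock, 57.2 and 104 in WT heat shock and 85.1 and 74.8 in KO recovery. Their KO minus WT differences at heat shock were -2.42 ± 0.23 and -2.26 ± 0.21 on the log2 scale, which is smaller than for the tryptophan or glycine tRNA, a contrast between genes that was not tested. The proline tRNA MT-TP differed by -1.52 ± 0.35 and the asparagine tRNA MT-TN by -0.87 ± 0.21. Both passed, but MT-TP did not pass without WT heat shock replicate 2, where its difference was -0.77. In KO recovery MT-TE rose by 2.32 ± 0.18, MT-TS1 by 2.25 ± 0.18, MT-TP by 3.29 ± 0.19 and MT-TN by 1.34 ± 0.14 on the log2 scale.

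**Figure D1:**
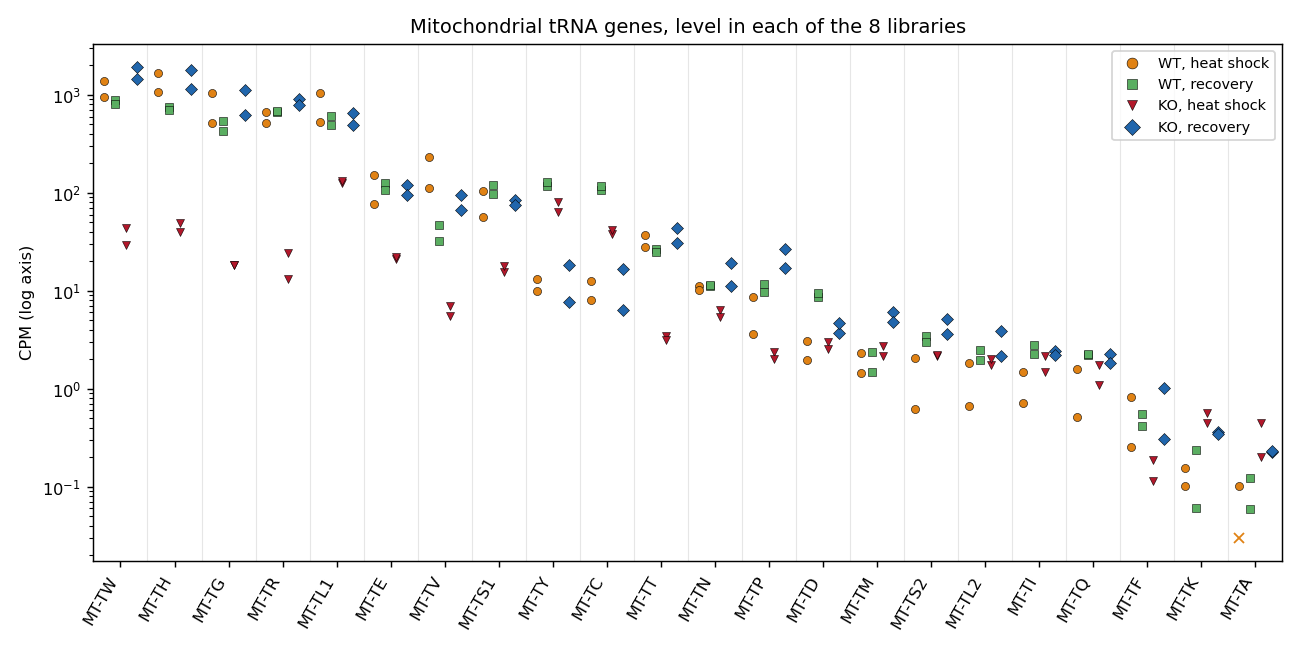
Each point is 1 library's level of a mitochondrial tRNA gene in CPM on a log axis, with tRNAs ordered by their mean over the 8 libraries and groups given by colour and marker. The cross marks the single value of 0, for MT-TA. The KO heat shock libraries lie below the others for MT-TW through MT-TS1 and for MT-TT, and MT-TY and MT-TC are high in WT recovery and KO heat shock.

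MT-TC and MT-TY, the cysteine and tyrosine tRNAs that lie side by side on the light strand, moved the other way. The sources used here do not say whether reads were counted by strand, so a read of the opposite strand's precursor cannot be told apart from one of these genes. MT-TC stood at 37.6 and 41.7 CPM in KO heat shock, 8.03 and 12.4 in WT heat shock, 106 and 118 in WT recovery and 6.38 and 16.7 in KO recovery. For MT-TY the levels were 63.9 and 79.7 CPM in KO heat shock, 9.97 and 13.1 in WT heat shock, 118 and 128 in WT recovery and 7.63 and 18.5 in KO recovery. Both were high in WT recovery and in KO heat shock and low in the other groups, and the high and low groups did not overlap. On the log2 scale they rose in WT recovery, by 3.47 ± 0.19 for MT-TC and 3.42 ± 0.16 for MT-TY, and fell in KO recovery, with changes of -1.85 ± 0.18 and -2.52 ± 0.15. KO minus WT was 1.96 ± 0.28 and 2.64 ± 0.26 at heat shock and -3.25 ± 0.27 and -3.21 ± 0.25 at recovery. The recovery responses of the lines thus differed by -5.31 ± 0.26 for MT-TC (adjusted p = 3.66e-11) and -5.94 ± 0.22 for MT-TY (adjusted p = 6.19e-13). Each of these calls held in every alternative setting that was run, but the sizes in KO cells depended on which library was kept. Without KO recovery replicate 1 the KO recovery change was -1.29 for MT-TC and -2.08 for MT-TY, and without replicate 2 it was -2.56 and -3.06. KO minus WT at recovery was -2.74 for MT-TC and -2.73 for MT-TY without KO recovery replicate 1, and both were larger in size without replicate 2, at -4.12 for MT-TC. Leaving out KO heat shock replicate 1 gave KO recovery changes of -1.32 and -2.10, and leaving out its replicate 2 gave -2.56 and -3.07.

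The make-up of the tRNA reads differed between groups. The tryptophan, glycine, arginine and histidine tRNAs gave 31.4 and 23.9% of all mitochondrial tRNA counts in KO heat shock, 78.4 and 74.6% in WT heat shock, 70.2 and 71.6% in WT recovery and 84.2 and 82.6% in KO recovery. MT-TC and MT-TY together gave 23.4 and 28.9% in KO heat shock, 0.462 and 0.402% in WT heat shock, 5.55 and 6.68% in WT recovery and 0.206 and 0.724% in KO recovery. In KO heat shock MT-TL1 was the most counted tRNA, at 29.02 and 31.09% of tRNA counts, against 9.54 to 16.3% in the other libraries.

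MT-TD, the aspartate tRNA, is read from the heavy strand and stood at 3.03 and 2.53 CPM in KO heat shock, 1.94 and 3.08 in WT heat shock, 8.68 and 9.48 in WT recovery and 3.70 and 4.68 in KO recovery. WT recovery was above the other groups, and MT-TD rose in WT recovery by 1.86 ± 0.21 on the log2 scale, while KO minus WT at recovery was -1.11 ± 0.19. It did not pass between the lines at heat shock (0.14 ± 0.23, adjusted p = 0.643). The methionine tRNA MT-TM also did not pass at heat shock (0.35 ± 0.28), but was higher in KO at recovery by 1.49 ± 0.27, at 6.07 and 4.75 against 2.37 and 1.48 CPM.

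The other 7 tRNAs were rarely counted. MT-TF, MT-TI, MT-TQ, MT-TS2, MT-TL2 and MT-TK lay between 0.0607 and 5.17 CPM in all libraries. MT-TA held 0 to 12 counts per library, was not tested, and in the WT heat shock library where it had 0 counts a level of up to 0.153 CPM (3 counts) is allowed. Of the 6 tested, the phenylalanine tRNA MT-TF was lower in KO at heat shock by -1.84 ± 0.74, which rested on few reads. It lost its call without WT heat shock replicate 2 (-0.80), without either KO heat shock library and in DESeq2, and was -2.49 without WT heat shock replicate 1. The lysine tRNA MT-TK was higher in KO at heat shock by 1.96 ± 0.59, at 0.449 and 0.568 against 0.102 and 0.154 CPM, and lost its call (1.67) without WT heat shock replicate 1. The isoleucine, glutamine, serine (MT-TS2) and leucine (MT-TL2) tRNAs had KO minus WT differences of 0.40 to 0.70 at heat shock that did not pass.

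Position along the genome was compared with these values after they had been seen, so what follows is a description without a test. Of the tRNA genes read from the heavy strand, 8 begin directly after an mRNA or rRNA gene with no base between: MT-TV, MT-TL1, MT-TI, MT-TW, MT-TG, MT-TR, MT-TH and MT-TT. Among these, 7 of 8 had a KO minus WT log2 difference at heat shock of -2 or lower and a KO recovery change of 2 or higher, the exception being MT-TI, and their median difference at heat shock was -4.86. The other 6 heavy-strand tRNAs had differences at heat shock from -1.84 to 1.96 with a median of 0.47. The 7 tested light-strand tRNAs ranged from -2.42 to 2.64. Level ran along with position. In WT heat shock the 7 heavy-strand tRNAs at -2 or lower averaged 32.4 (MT-TT) to 1369 CPM (MT-TH). MT-TI and the other 6 averaged 0.128 (MT-TK) to 2.51 CPM (MT-TD). On the light strand MT-TE and MT-TS1, the 2 at -2 or lower, averaged 115 and 80.8 CPM. There the others averaged at most 11.5 CPM (MT-TY). Position and level were not separated.

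Set against the neighbouring gene of the same library, tRNA levels can be compared without scaling between libraries. MT-TW reads per 100 reads of MT-ND2, the gene just before it, numbered 0.560 and 0.356 in KO heat shock, 17.6 and 22.6 in WT heat shock, 16.5 and 16.97 in WT recovery and 23.3 and 19.5 in KO recovery. MT-TV reads per 100 reads of MT-RNR1 numbered 0.0631 and 0.0606 in KO heat shock, 0.908 and 1.45 in WT heat shock, 0.983 and 0.680 in WT recovery and 0.960 and 0.829 in KO recovery. The KO heat shock libraries were lowest in both ratios and in those of MT-TG, MT-TR, MT-TH, MT-TL1 and MT-TT, without overlap. MT-TY reads per 100 reads of MT-CO1, which lies beyond it on the opposite strand, numbered 1.08 and 1.23 in KO heat shock, 0.154 and 0.162 in WT heat shock, 1.56 and 1.85 in WT recovery and 0.128 and 0.341 in KO recovery. Here WT recovery and KO heat shock were the high groups.

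**Figure D2:**
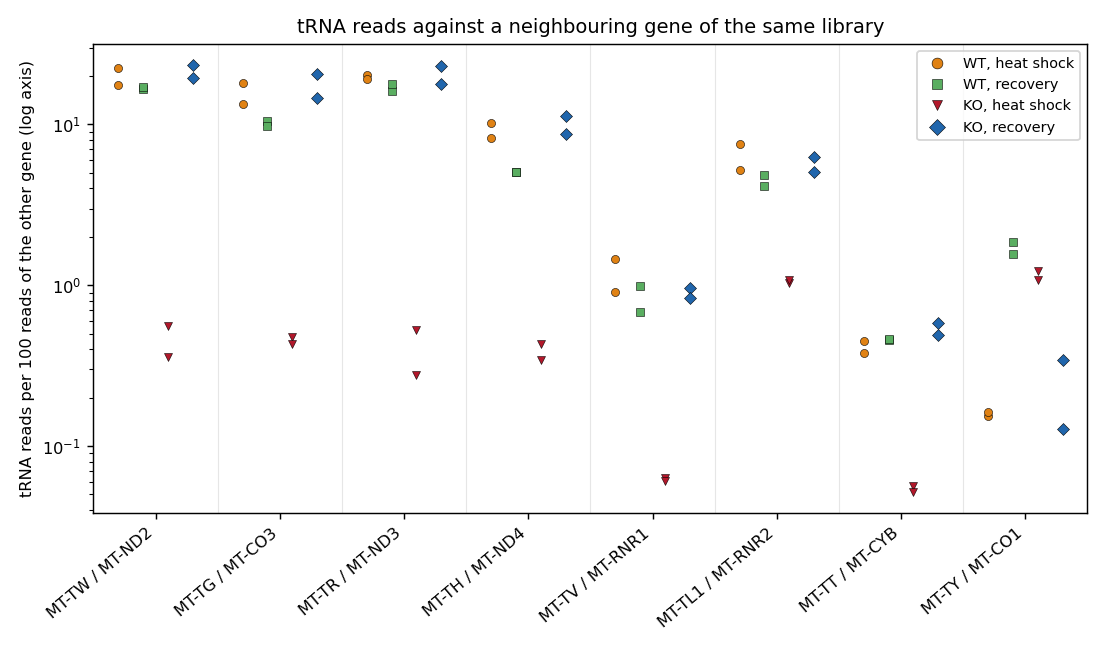
Each point is 1 library's number of tRNA reads per 100 reads of a neighbouring mitochondrial gene, on a log axis, with groups given by colour and marker. In the 7 pairs on the left the KO heat shock libraries lie below all others, and for MT-TY over MT-CO1 they lie with WT recovery above the rest.

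Other RNA classes are given beside this result, and their part in it was not tested. Of genes whose longest transcript is at most 100 bases, 26 outside the mitochondrial genome were tested, with a median KO minus WT log2 difference at heat shock of 0.13 and a median KO recovery change of 0.09. For the 52 genes above that and up to 200 bases the medians were -0.24 and 0.48. Small nucleolar RNAs made up 0.00324 to 0.00497% of counts in the 8 libraries. From a list of RNAs that lack a poly(A) tail, 9 rows were tested, of which 2 are RPPH1. Their counts were low here, the highest value being 18.4 CPM for RN7SK in KO heat shock replicate 1. At heat shock 4 rows were higher and 1 was lower in KO, against 27.4 and 28.2% of all genes, with a median of 1.17. In KO recovery 1 rose and 5 fell, against 20.6 and 21.1%, with a median of -1.49. RMRP, the RNA of RNase MRP, was higher by 1.49 ± 0.22 at heat shock, RN7SK, which holds back an elongation factor in the nucleus, by 1.17 ± 0.21, and the RPPH1 rows, the RNA of nuclear RNase P, by 2.68 ± 0.29 and 2.50 ± 0.29. SCARNA12 did not pass at -0.38 ± 0.26. SCARNA13 and RN7SL1, picked out after their values were seen, went the other way from the list's median: SCARNA13 was lower at heat shock by -1.55 ± 0.55 and RN7SL1 rose in KO recovery by 1.15 ± 0.35. Both rested on few reads. SCARNA13 stood at 0.15 and 0.14 CPM in KO heat shock against 0.51 and 0.36 in WT heat shock. RN7SL1 stood at 0.56 and 0.68 CPM in KO heat shock and 1.47 and 1.33 in KO recovery. Per the labels' protocols the libraries were made from poly(A) RNA or from RNA depleted of rRNA, and the sources used here do not say which library was made from which.

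The mitochondrial rRNAs made up 1.72 to 2.89% of counts, and only the smaller one changed much. MT-RNR1, the 12S rRNA of the small ribosomal subunit, stood at 11141 and 9143 CPM in KO heat shock, 12449 and 15896 in WT heat shock, 4801 and 4741 in WT recovery and 9884 and 8022 in KO recovery. WT recovery lay below every other library. MT-RNR2, the 16S rRNA of the large subunit, stood at 12269 and 12119 CPM in KO heat shock, 10125 and 13707 in WT heat shock, 12675 and 11895 in WT recovery and 10338 and 9773 in KO recovery. Its groups lay close together. MT-RNR1 fell in WT recovery with a log2 change of -1.56 ± 0.11 (adjusted p = 5.63e-09), did not pass in KO recovery (-0.18 ± 0.11, adjusted p = 0.210), and the responses differed by 1.38 ± 0.16 (adjusted p = 8.19e-07).

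MT-RNR1 reads per 100 MT-RNR2 reads numbered 90.8 and 75.5 in KO heat shock, 123 and 116 in WT heat shock, 37.9 and 39.9 in WT recovery and 95.6 and 82.1 in KO recovery. The ratio was therefore lowest in WT recovery, also within single libraries. Between the lines MT-RNR1 was lower in KO at heat shock by -0.48 ± 0.13 on the log2 scale, which missed the threshold once KO heat shock replicate 2 was left out (-0.35) and fell to -0.31 without WT heat shock replicate 2, and higher in KO at recovery by 0.91 ± 0.13. MT-RNR2 was lower in KO at recovery by -0.29 ± 0.11, a call that did not pass when any of the 4 libraries was left out (-0.34 to -0.24). The tRNA MT-TV, which lies between these genes, also fell in WT recovery, by -2.04 ± 0.21 on the log2 scale, or -1.26 with WT heat shock replicate 2 left out and -1.25 with WT recovery replicate 2 left out.

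The 13 mRNAs moved little. Together they made up 6.47 to 7.77% of counts, and no mRNA changed by more than 0.85 on the log2 scale in any of the 4 comparisons between groups. Per kilobase of gene and over all libraries, MT-ND3, MT-ATP6, MT-ND4, MT-ND4L and MT-CO2 were the highest mRNAs and MT-ND1 and MT-ND6 the lowest. MT-ND1 and MT-ND6 held the bottom 2 ranks in all 8 libraries, while the ranks of the leading genes overlapped: MT-ND3 ranged from 7294 to 13634 CPM per kilobase and MT-ATP6 from 9618 to 12964.

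Of the complex I subunits, MT-ND4L showed the largest difference between the lines at heat shock. It stood at 1848 and 1912 CPM in KO heat shock, 3369 and 3409.7 in WT heat shock, 2924 and 2804 in WT recovery and 3568 and 2697 in KO recovery. Both KO heat shock libraries were below all others, as for the arginine tRNA MT-TR, whose gene ends where MT-ND4L begins. KO minus WT at heat shock was -0.85 ± 0.11 on the log2 scale (adjusted p = 1.33e-05), and the KO change to recovery was 0.72 ± 0.11, which missed the threshold once KO heat shock replicate 1 was left out (0.50). MT-ND4 overlaps MT-ND4L by 7 bases and lies in the same mRNA, and MT-ND4L reads per 100 reads of MT-ND4 numbered 16.2 and 16.4 in KO heat shock against 19.7 to 25.7 in the other libraries.

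MT-ND2 was higher in KO than in WT at both points. Its levels were 7791 and 8244 CPM in KO heat shock, 5414 and 6139.5 in WT heat shock, 5324 and 4808 in WT recovery and 8171 and 7488 in KO recovery, without overlap between the lines. The KO minus WT difference was 0.47 ± 0.09 at heat shock and 0.63 ± 0.09 at recovery. MT-ND1 passed at recovery only (0.50 ± 0.10, against 0.21 ± 0.10 with adjusted p = 0.0843 at heat shock). MT-ND3 stood at 2524 and 3441 CPM in WT heat shock and 4637 and 4717 in KO heat shock, a difference of 0.65 ± 0.12, or 0.40 without WT heat shock replicate 1. MT-ND6, the only mRNA of the light strand, was lower in KO at recovery, at 1215 and 1248 against 2047 and 1889 CPM, a difference of -0.68 ± 0.11.

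MT-CO2, a cytochrome c oxidase subunit of complex IV, fell in WT recovery from 7133 and 6819 to 4732 and 4476 CPM, with a log2 change of -0.60 ± 0.13. The pairs did not overlap, and the call held in every setting run. MT-CYB, cytochrome b of complex III, changed by -0.45 ± 0.11 and did not pass without replicate 2 of WT heat shock (-0.30) or of WT recovery (-0.29). MT-ATP8 of ATP synthase stood at 562 and 1108 CPM in WT heat shock and 1388 and 1137 in WT recovery. Its rise of 0.67 ± 0.18 rested on the low value in WT heat shock replicate 1, since without that library or its partner it was 0.01. MT-ATP8 shares 46 bases with MT-ATP6, so reads there cannot be assigned to one gene.

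**Figure D3:**
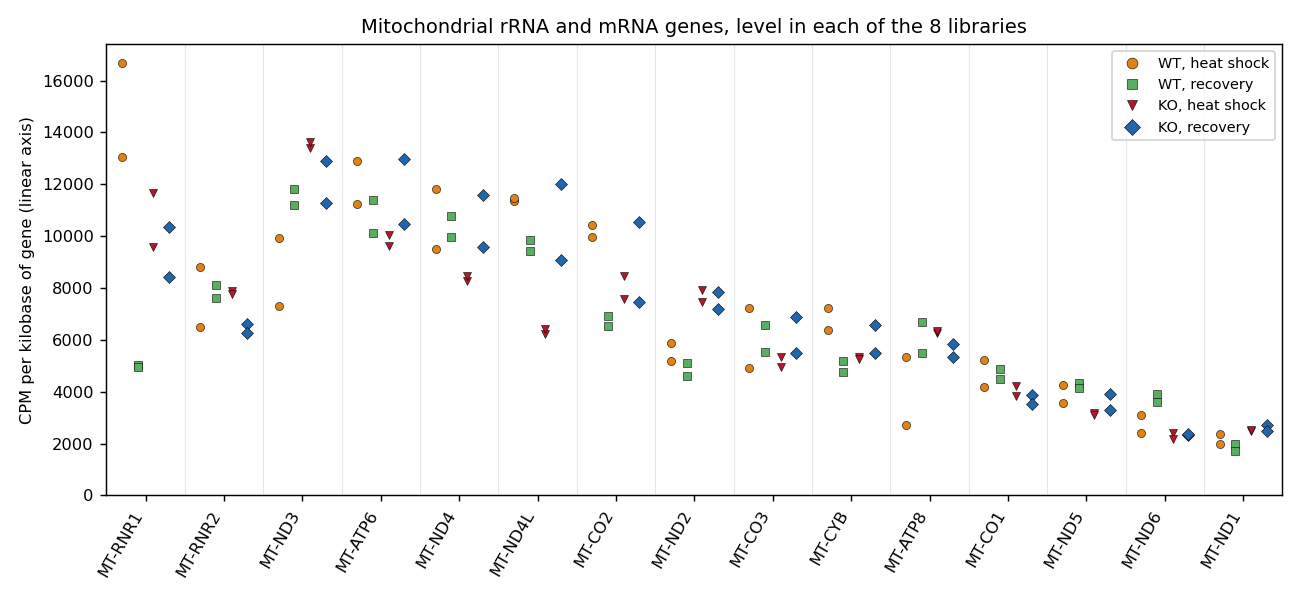
Each point is 1 library's level of a mitochondrial rRNA or mRNA gene in CPM per kilobase of gene on a linear axis, rRNAs first and mRNAs in order of their mean, with groups given by colour and marker. MT-RNR1 is lowest in WT recovery, MT-ND4L is lowest in KO heat shock, and most other genes overlap between groups.

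By count, 36 of the 37 transcripts passed the filter on low counts and were tested, and shares of all 17471 genes are given beside each count. At heat shock 6 members were higher and 20 lower in KO than in WT, against 55.5% of all genes that passed in either direction there (27.4% higher and 28.2% lower). With a change of at least 4-fold added, 10 of 36 members passed, all of them tRNAs, against 3.45% of all genes. The median difference of the 21 tRNAs was -1.52, that of the 13 mRNAs -0.27, and that of all genes -0.03. Without WT heat shock replicate 2 the counts were 13 higher and 15 lower, and without KO heat shock replicate 2 they were 5 and 13.

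In KO recovery 17 members rose and 2 fell, against 41.8% of all genes (20.6% higher and 21.1% lower), and 12 members changed at least 4-fold, again only tRNAs, against 1.53% of all genes. The tRNA median was 2.03, the mRNA median 0.15 and that of all genes -0.02. Between the lines at recovery 12 members were higher and 6 lower in KO, against 63.1% of all genes (31.8% higher and 31.3% lower), and the 2 that differed at least 4-fold, MT-TC and MT-TY, stood beside 8.1% of all genes. Without KO recovery replicate 1 the count of higher members was 6, and without WT recovery replicate 2 it was 7.

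In WT recovery 11 members rose and 8 fell, against 50.8% of all genes (24.8% higher and 26.0% lower), and the 3 that changed at least 4-fold, MT-TC, MT-TY and MT-TV, stood beside 4.58% of all genes. Most of these calls turned on the discordant WT heat shock pair. Without WT heat shock replicate 1 there were 3 higher and 15 lower members, and without replicate 2 there were 16 and 4. The fit pairs each recovery library with the heat shock library of its number, so leaving out either WT recovery library gave like counts: 3 and 14 without replicate 1, and 15 and 4 without replicate 2. The calls of 7 members, MT-RNR1, MT-TV, MT-TC, MT-TY, MT-TD, MT-TH and MT-CO2, held in every setting in which they were tested, although the change of MT-TH went from -0.89 ± 0.13 to -0.53 without replicate 2 of either group. Of processed pseudogenes 820 were tested, with a median log2 change of 3.09 in WT recovery and -0.27 in KO recovery. For KO minus WT their median was 0.06 at heat shock and -3.29 at recovery, and it was -3.35 for the difference of the recovery responses. Their share of counts was higher at recovery in both lines, at 0.476 and 0.741% in WT heat shock, 0.940 and 0.820% in WT recovery, 0.321 and 0.234% in KO heat shock and 0.656 and 0.623% in KO recovery. Their part in the values of WT recovery, of KO against WT at recovery and of the difference of the responses was not tested.

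**Figure D4:**
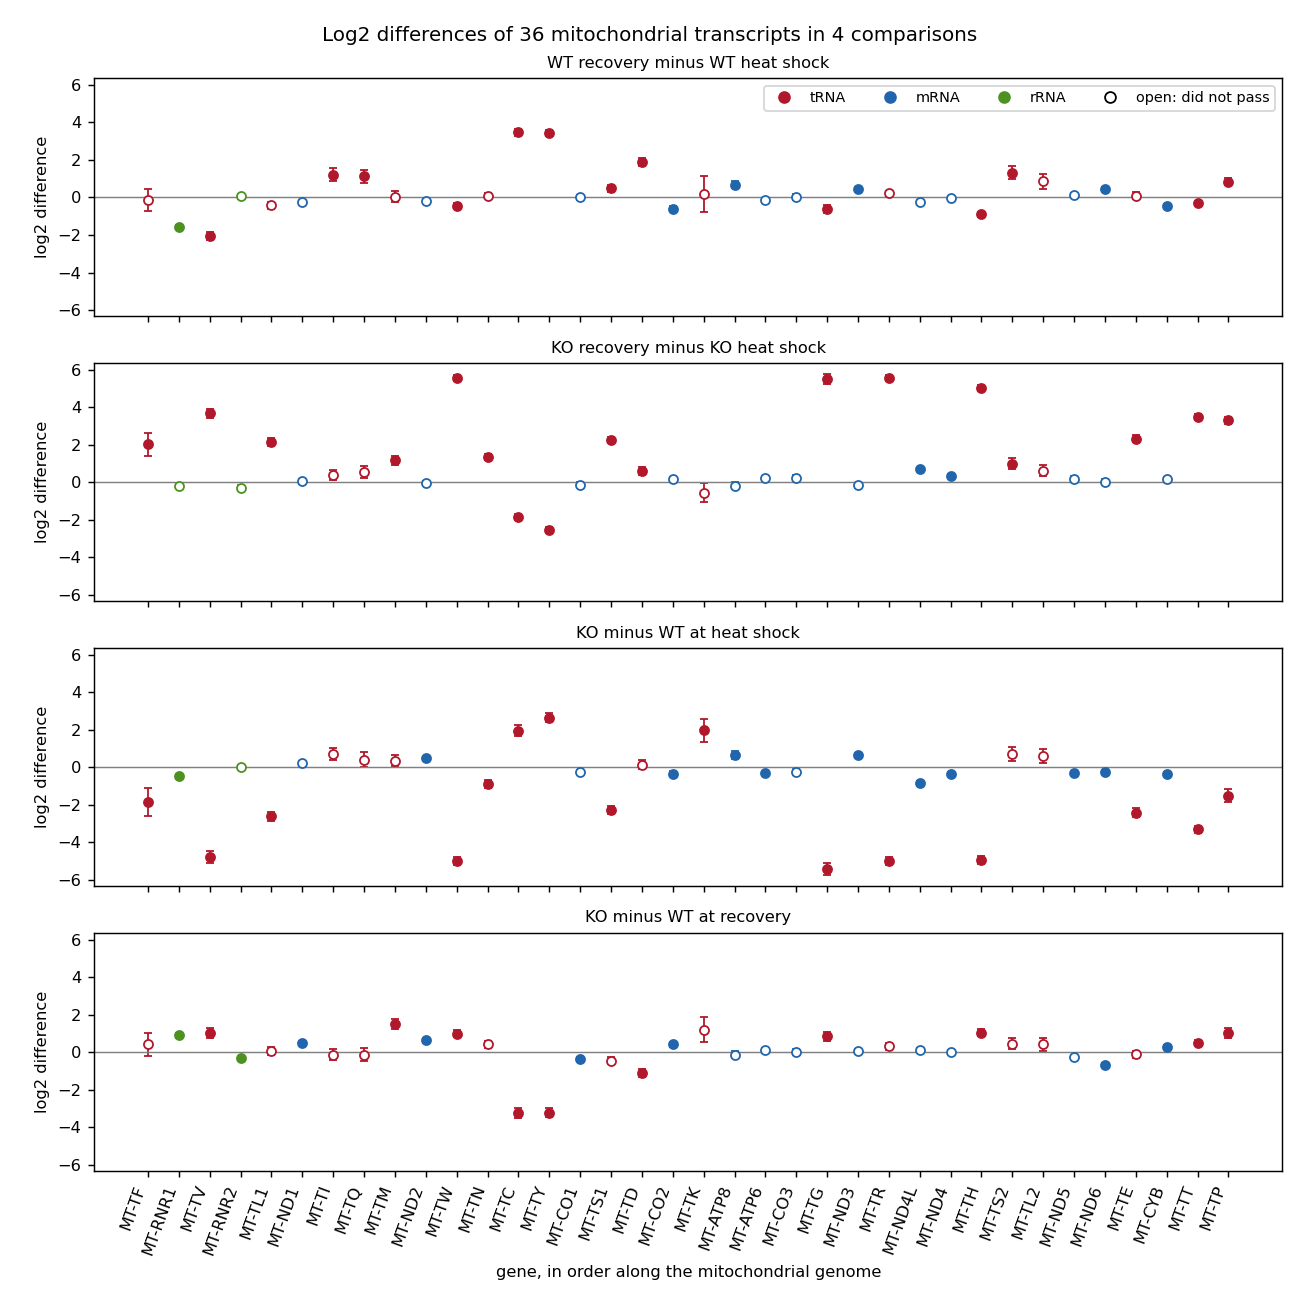
Points are log2 differences with standard errors (edgeR, 2 libraries per group) for the 36 tested transcripts in their order along the mitochondrial genome, one panel per comparison, coloured by class and filled where the adjusted p was under 0.05. At KO heat shock and in KO recovery the tRNAs reach -5.40 and 5.56, while the mRNAs stay within 0.85 of 0 and MT-RNR1 reaches -1.56 in WT recovery.

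The recovery responses of the lines differed for 24 members, 18 with a higher and 6 with a lower value in KO, against 56.3% of all genes (28.5% higher and 27.8% lower), and 12 differed at least 4-fold, against 7.36% of all genes. The highest values were 6.10 ± 0.32 for MT-TG, 5.98 ± 0.19 for MT-TW and 5.91 ± 0.20 for MT-TH, and the lowest was -5.94 ± 0.22 for MT-TY. For 16 members the call held in every setting in which they were tested. Leaving out replicate 1 of either WT group gave 3 members with a lower value, and leaving out replicate 2 gave 10.

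Nuclear genes that make, cut and use mitochondrial RNA were read from lists, and their counts can be read against the shares of all genes that passed: 27.4% higher and 28.2% lower in KO at heat shock, 31.8 and 31.3% at recovery, 20.6 and 21.1% in KO recovery, and 24.8 and 26.0% in WT recovery. In the list for RNA cleavage, stability and decay, 13 of 22 genes were higher and 2 lower in KO at heat shock, and at recovery 18 were higher and the other 4 did not pass. RNase P is built from TRMT10C (listed as RG9MTD1), HSD17B10 and PRORP. RG9MTD1 was higher in KO at heat shock by 1.30 ± 0.13 and fell in KO recovery, with a log2 change of -0.71 ± 0.09. HSD17B10 was lower by -1.16 ± 0.09 and rose by 1.13 ± 0.10. The remaining subunit, PRORP (listed as KIAA0391 and given here to complete the enzyme, after its values were seen), did not pass in either comparison, at 0.16 ± 0.09 and 0.07 ± 0.10. ELAC2, the nuclease that cuts the 3′ end of tRNAs, fell in WT recovery with a change of -0.79 ± 0.10. PNPT1, a subunit of the mitochondrial degradosome, was higher in KO at heat shock by 1.08 ± 0.09 and fell in KO recovery by 0.63.

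In the list for mitochondrial transcription, 7 of 18 tested genes were higher and 4 lower in KO at heat shock (27.4 and 28.2% of all genes), and 6 rose and 8 fell in KO recovery (20.6 and 21.1%). TFAM, which packages mitochondrial DNA and starts its transcription, was higher by 1.24 ± 0.10 at heat shock and fell by 0.78 in KO recovery. TFB2M, the factor that opens the promoter, was higher by 1.22 ± 0.10 at heat shock. TOP1MT, from the same list, was lower in KO at heat shock, at -1.08 ± 0.08. For tRNA modification and CCA addition, 8 of 20 genes were higher and 4 lower in KO at heat shock, and in WT recovery 3 rose and 11 fell (24.8 and 26.0% of all genes), among them the pseudouridine synthase PUS1 at -1.07 ± 0.11 and the thiouridylase TRMU at -0.86 ± 0.10. Of the 19 tRNA synthetases, 7 were higher and 3 lower in KO at heat shock. The histidine enzyme HARS2 was higher, at 0.74 ± 0.08, and the glycine enzyme GARS was lower, at -0.46 ± 0.08. Mitochondrial translation factors gave 4 higher and 2 lower of 14 in that comparison, and genes of mitochondrial DNA upkeep 3 higher and 2 lower of 12, where 27.4% of all genes were higher and 28.2% lower.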

How the data were processed

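RNA-seq libraries of WT and FBXW7 KO HCT116 cells were grouped by their titles into 4 groups of 2. Per the labels' protocols, RNA was either selected for poly(A) or depleted of rRNA, libraries kept strand information through dUTP, and single reads of 50 bases were sequenced. CASAVA, TopHat and the build hg19 appear, without versions, in the submitters' processing notes. The sources used here do not give the counting program or whether it used strand. The authors deposited 4 tables, one per cell line and replicate, each with whole-number read counts of a recovery and a heat shock library for every Ensembl gene. The deposited log2 fold change was used only to check which count column is which, and it matched the recomputed ratio in all 4 tables. Rows given as NA were set to 0, and 0 other columns of per-sample values were present.

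Counts were tested here with edgeR 4.0.16 in R 4.3.3 (TMM scaling, filterByExpr with a minimum count of 10, quasi-likelihood F test, Benjamini-Hochberg adjustment over 17471 genes, threshold 0.05) on all 8 libraries. Recovery responses and their difference were fitted with the replicate pair of each line as a block (2 residual degrees of freedom), since the series design compares matched pairs, and KO against WT with group means (4 residual degrees of freedom). Deviations of same-numbered libraries did not correlate (r = -0.0156 in WT and -0.0138 in KO). CPM use TMM-scaled library sizes, and each standard error is the log2 difference divided by the square root of F. With 4-fold changes simulated for 97 to 99 genes, the test recovered 90.8 to 97.0% of them over the 5 comparisons, and 69.5 to 81.5% of 2-fold ones. Positions, strands and tRNA sequences come from GENCODE release 29 on GRCh38 and were joined by gene ID, never by hg19 position. DESeq2 1.42.0, other scalings and filters, other pairings and leaving out each library were the alternatives. Names were restricted to all mitochondrial transcripts, up to 4 genes with the lowest p per list and comparison, and the 5 nuclear copies and 4 RNAs without a poly(A) tail with the highest mean CPM. The members and lists were chosen with earlier results of these data known.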

Additional observations from a re-analysis of the deposited data

Results flagged for a closer look

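The recovery responses of the KO and WT lines differed, by a test of the difference itself in edgeR with Benjamini-Hochberg adjustment, for 24 of 36 tested mitochondrial transcripts. Of all 17471 genes, 56.3% passed in the same comparison (28.5% higher and 27.8% lower). Values are the KO response minus the WT response on the log2 scale, and no explanation was weighed. Of the tRNAs, 13 had a higher value: 6.10 for MT-TG, 5.98 for MT-TW, 5.91 for MT-TH, 5.71 for MT-TV, 5.34 for MT-TR, 3.78 for MT-TT, 2.57 for MT-TL1, 2.46 for MT-TP, 2.22 for MT-TE, 2.15 for MT-TF, 1.77 for MT-TS1, 1.25 for MT-TN and 1.12 for MT-TM. The 3 tRNAs with a lower value were MT-TY at -5.94, MT-TC at -5.31 and MT-TD at -1.26. MT-RNR1 differed by 1.38. Among the mRNAs, MT-ND4L differed by 0.97, MT-CO2 by 0.75, MT-CYB by 0.63 and MT-ATP6 by 0.41, while MT-ATP8 differed by -0.84, MT-ND3 by -0.60 and MT-ND6 by -0.42. The calls of MT-TF, MT-TM, MT-CO2, MT-ATP8, MT-ATP6, MT-ND3, MT-ND6 and MT-CYB were lost in at least 1 alternative: without WT heat shock replicate 2, MT-TF was 0.95, MT-TM 0.45 and MT-ATP6 0.24, without WT heat shock replicate 1, MT-ATP8 was -0.17, MT-ND3 -0.29 and MT-ND6 -0.13, and without KO heat shock replicate 1, MT-CO2 was 0.42 and MT-CYB 0.52.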

How the results depend on the processing

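Most values stayed on their side of the threshold, but small values that passed in neither setting often changed sign. Over settings other than leaving out a library, 941 values kept both sign and side, 21 that passed in neither changed sign (from values of -0.129 to 0.129), 44 gained a call and 32 lost one. With 1 library left out, 637 kept both, 71 that passed in neither changed sign (to values of -0.70 to 1.09), 50 gained a call, 94 lost one and 9 changed sign with a call on one side. These 9, each given with the range over all libraries left out, were for WT recovery MT-TS1 (-0.12 and -0.11 without replicate 1 of WT heat shock or WT recovery, range -0.119 to 1.07), MT-CO3 (-0.42 and -0.41 in the same order, range -0.416 to 0.429), MT-TE (-0.53 and -0.52, range -0.527 to 0.712) and MT-TG (0.0851 and 0.0900 without replicate 2 of either, range -1.30 to 0.0900). For KO against WT at heat shock it was MT-RNR2 (-0.21 without WT heat shock replicate 1, range -0.211 to 0.255). Without a replicate block, 17 members passed in WT recovery, 19 in KO recovery and 24 in the difference, against 19, 19 and 24. With a replicate block, KO against WT gave 28 at heat shock and 21 at recovery, against 26 and 18. DESeq2 gave 13, 16, 20, 22 and 16 members in these 5 comparisons. Leaving out a library gave 17 to 20, 15 to 20, 18 to 25, 18 to 28 and 12 to 19. When a pair's library is left out under the block, its partner gives no information. The mitochondrial share of counts changed in WT recovery by -0.597 percentage points, but by 0.200 for mRNAs only and 0.114 without the 2 rRNAs, and in KO recovery by 0.156 percentage points, and by 0.659 without the 2 rRNAs. Leaving out a library, share differences ran from -1.73 to 0.533 (WT recovery), -0.346 to 0.657 (KO recovery), -2.28 to -0.0217 (lines at heat shock) and -0.901 to 0.102 (at recovery), so none has a stable size. With 2 libraries per group and the rarest tRNAs at a few reads, small differences of MT-TF, MT-TK and MT-TA were not detectable at this depth. The cause of these shifts was not tested.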

Other observations

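Rows named as nuclear copies of mitochondrial genes, which resemble them in sequence and can share their reads, numbered 173, of which 53 had reads. Together they held 0.0332 to 0.0465% of counts, far below the 8.66 to 11.3% of all mitochondrial transcripts. In KO heat shock their share, 0.03585 and 0.03316%, was near that of the mitochondrial tRNAs, 0.0444 and 0.0431%. The symbols searched were those of mRNA and rRNA copies, so nuclear copies of tRNA genes were left out. The 5 copies with the highest mean CPM did not move together. MTND1P23, a copy of the MT-ND1 region, had 822 and 1382 counts in WT heat shock, 878 and 646 in WT recovery, 20 and 30 in KO heat shock and 1761 and 1406 in KO recovery. KO minus WT at heat shock was -6.12 on the log2 scale and the KO change to recovery was 6.31 for this row. The lowest tRNA difference at heat shock was -5.40 for MT-TG, while MT-TC and MT-TY were higher in KO. MTRNR2L1, a copy of the MT-RNR2 region, was lower in KO at heat shock by 1.55 and changed by 1.13 in KO recovery. MTND4P12 and MTND6P4 were the most abundant copies, and their differences between the lines at heat shock were 0.31 and -0.02. MTND5P11 held 34 to 92 counts per library and differed by -0.28 there. MTND2P28 and MTRNR2L10, given after their values were seen, went opposite ways. MTND2P28 had 73 and 96 counts in KO heat shock and 25 and 16 in WT heat shock, a KO minus WT log2 difference of 1.37. It had 117 and 87 counts in WT recovery and 29 and 51 in KO recovery. MTRNR2L10 had 2 counts in each KO heat shock library and 34 to 80 in the others. The sources used here do not say how reads that match both a copy and the mitochondrial genome were placed.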
